A study of Mus musculus with 4 samples.

Results

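Gata1 encodes a zinc finger transcription factor that binds GATA motifs in DNA. It is known as the master regulator of red blood cell formation, and it also acts in megakaryocytes, mast cells and eosinophils. The family member that T cells are known for is GATA3, which directs T helper 2 differentiation and is also used by Tregs, the regulatory CD4+ T cells that hold immune responses in check. Gata1 was chosen as 1 gene among the 282 genes of the deposited table and was selected on the normalized counts and log2 fold change of this comparison, so its levels, differences and ranks are given here as a description, with no test.

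Tregs were sorted from the lymph nodes and spleen of males aged 6 to 8 weeks, mice of the genotype Foxp3RFP-Cre.RosaYFPMll1fl/fl. In these mice Cre and a red fluorescent protein follow Foxp3 expression, the Rosa reporter turns on YFP where Cre has acted, and Mll1 (mouse symbol Kmt2a), a histone H3 lysine 4 methyltransferase gene, is flanked by loxP sites. RFP+YFP+ Tregs carried the genotype label MLL1KO and RFP+YFP- Tregs the label WT. Both populations have the floxed alleles and the Foxp3-linked Cre in common, so the WT label describes cells without reporter activation and not a separate strain. Each population had 2 libraries, with the mouse numbers 1 and 2 in both, and nothing in the labels says whether a number is 1 animal or a pool. Spread between libraries may therefore be in part technical. Kmt2a and Foxp3 have no value here, so neither the deletion nor the Treg label was checked by its defining gene.

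Gata1 (ENSMUSG00000031162) lies on the minus strand of chromosome X, from 7959260 to 7978071 in mm10. GENCODE M21, an annotation of the same build, gives it 3 transcripts and 0 overlapping genes. The longest transcript has 6 exons and 1902 bases and starts at 7967910. The deposited gene length of 2438 bases also holds 536 bases of exons from the other two transcripts, 1 of which begins upstream at 7978071. Counts were deposited per gene, so the use of each start was not analysed here. The sequence around the main start is shown beside that of Gata3, the other GATA gene in the table, because the genes were counted in opposite directions. Each window runs from 250 bases before to 50 bases after the start (RefSeq, GRCm38.p6). Both are on the minus strand, at chrX:7967861-7968160 and chr2:9878551-9878850, and capitals mark CpG dinucleotides. The deposited Gata3 gene reaches to 9890034, upstream of its window, so that window does not hold the upstream end of the counted gene.
Gata1: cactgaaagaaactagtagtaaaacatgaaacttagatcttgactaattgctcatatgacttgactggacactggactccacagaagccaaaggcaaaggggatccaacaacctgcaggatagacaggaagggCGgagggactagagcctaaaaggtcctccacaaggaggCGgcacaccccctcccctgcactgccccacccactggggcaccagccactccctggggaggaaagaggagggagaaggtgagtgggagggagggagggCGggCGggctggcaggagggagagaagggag
Gata3: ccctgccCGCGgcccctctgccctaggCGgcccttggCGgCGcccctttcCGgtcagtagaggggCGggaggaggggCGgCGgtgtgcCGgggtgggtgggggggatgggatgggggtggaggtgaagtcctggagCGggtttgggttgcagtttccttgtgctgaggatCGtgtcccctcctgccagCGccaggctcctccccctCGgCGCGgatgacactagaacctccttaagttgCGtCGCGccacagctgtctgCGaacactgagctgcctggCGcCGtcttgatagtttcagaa

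The Gata1 window held 4 CpG dinucleotides, against a median of 7 over 32851 mouse promoter windows of that length. The Gata3 window held 22. The GATA motif was searched on both strands as AGATAA, the same letters with a final G (AGATAG), those with a leading T instead of A (TGATAA), and those with both changes (TGATAG). It had 0 matches in the Gata1 window and 1 in the Gata3 window, and 29.8% of all windows held at least 1 match. A match or its absence describes only these letters in this stretch.

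Gata1 was higher in YFP-positive than in YFP-negative Tregs in both mice. Its normalized count, the authors' read count divided by a size factor of the library, was 679 in YFP-positive mouse 1 and 833 in YFP-positive mouse 2. In YFP-negative Tregs it was 132 in mouse 1 and 141 in mouse 2. The YFP-positive libraries were both far above the YFP-negative ones, and the groups did not overlap, which also held for 100% of the listed genes. The means were 756 ± 109 and 137 ± 6.31 (SD, n = 2 each), a 5.53-fold difference. Within mouse 1 the YFP-positive library was 5.13-fold higher, and within mouse 2 it was 5.90-fold higher. On the scale of log2(normalized count + 1) the differences were 2.35 and 2.55, with a mean of 2.45 ± 0.14 (SD over the mice, n = 2). In bulk RNA, a larger share of cells with Gata1 and more Gata1 RNA per cell cannot be told apart.

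Gata1 RNA was not absent from the YFP-negative cells. The steps of the deposited values imply 135 and 157 Gata1 reads in YFP-negative mice 1 and 2, and 653 and 786 reads in YFP-positive mice 1 and 2. Exact Poisson intervals at 95%, which cover counting error only, ran from 111 to 157 and from 120 to 165 normalized counts in YFP-negative mice 1 and 2. They ran from 628 to 733 and from 776 to 894 in YFP-positive mice 1 and 2. The YFP-negative intervals overlapped each other and the YFP-positive intervals did not. Mouse 2 was the higher of the mice in both populations, by 1.23-fold in YFP-positive and 1.07-fold in YFP-negative Tregs.

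In the authors' deposited table the log2 fold change of Gata1 was 2.47, with an adjusted p of 1.01e-09. The p-values of that table imply 14239 tested genes, of which 282 (1.98%) are listed under an adjusted p of 0.05 and an absolute log2 fold change above 1. The 86 genes listed as higher in YFP-positive Tregs make up 0.604% of those tested. By the authors' p-value Gata1 stood in position 8 of 282 genes and in position 4 of the 86 higher genes. By the authors' fold change it stood in position 22 of those 86, where the median log2 fold change was 1.79. These values chose the gene, and nothing is read from them.

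The deposited table assigned a transcription factor family to 18 of its genes, and among them Gata1 had the largest positive log2 fold change and the smallest p-value of the authors. The family label was taken as deposited. It covers 10 families, and 4 of the 18 genes were higher and 14 lower in YFP-positive Tregs. That is 22.2% higher, against 30.5% of all 282 genes, and beside 0.604% of the tested genes listed as higher and 1.38% listed as lower. The other genes on the higher side were Cers6, a ceramide synthase gene that carries the Homeobox label, Jun, a subunit of the AP-1 factor, and Bach2, a repressor of effector programmes in T cells. Their differences on the log2 scale were 1.92, 1.52 and 1.26, against 2.45 for Gata1.

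Cers6 came closest to Gata1 in a single mouse. Its difference was 2.29 in mouse 1, near the 2.35 of Gata1, but 1.55 in mouse 2, where Gata1 reached 2.55. Jun stood at 1.74 and 1.29 and Bach2 at 1.60 and 0.91 in mice 1 and 2. Of the higher genes with a family, Gata1 alone had the larger difference in mouse 2. Its SD between mice was 0.14, against 0.52 for Cers6, 0.32 for Jun and 0.49 for Bach2. This SD was not unusually small, since 5 of the 18 genes with a family and 26 of the 86 higher genes had a smaller one.

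In absolute size, 2 lower genes had a larger fold change than Gata1 in the authors' deposited table. They were Prox1, a homeobox gene of lymphatic development (log2 fold change -4.66), and Pbx3, a partner of Hox proteins (-2.82). Both were counted low in YFP-positive Tregs, Prox1 at 3.12 and 0 and Pbx3 at 11.4 and 17.0 normalized counts in mice 1 and 2. The lower genes also included Gata3, Batf, Runx2, Ahr, Tox2, Maf, Tbx21, Prdm1, Id2, Rora and Arnt2, with log2 fold changes from -1.10 for Gata3 to -2.46 for Arnt2.

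**Figure D1:**
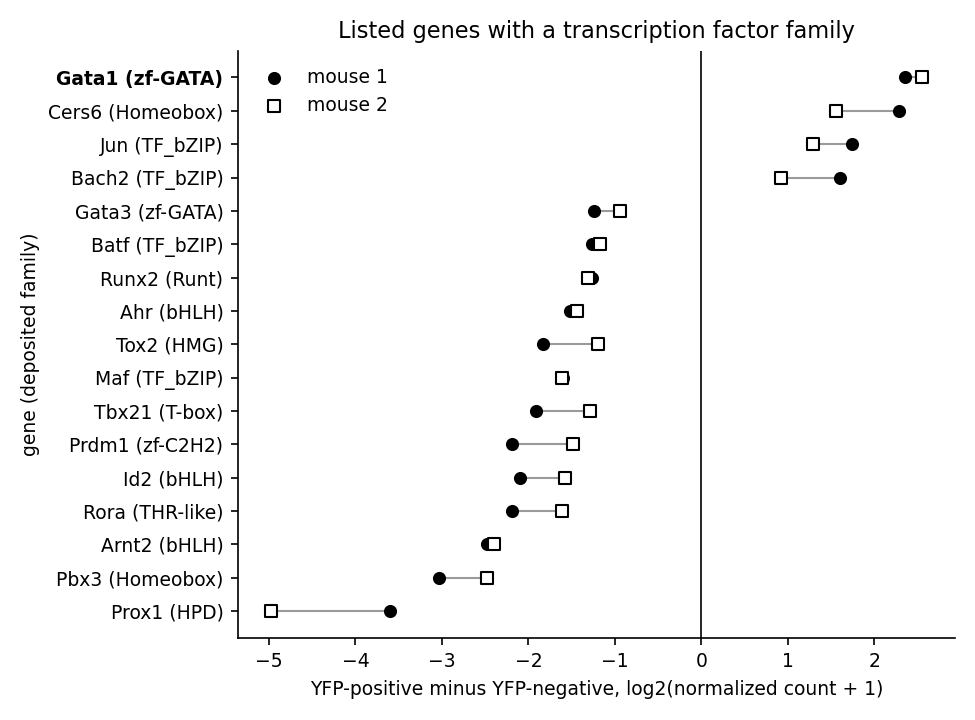
Difference between YFP-positive and YFP-negative Tregs within each mouse, on the scale of log2(normalized count + 1), for 17 of the 18 listed genes with a transcription factor family. Filled circles are mouse 1, open squares mouse 2, and a line joins the 2 values of a gene. Gata1 is at the top, at 2.35 and 2.55, and 13 of the genes shown lie on the negative side in both mice.

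Levels per kilobase of exon allow for gene length, and the deposited lengths were used. For Gata1 that length holds 536 bases outside its longest transcript. Transcript use is not known, so levels per kb and the order of genes close in level depend on the length chosen. On this scale Gata1 stood in position 11 of the 18 genes in YFP-negative Tregs and in position 5 in YFP-positive Tregs. Its mean level was 56.1 normalized counts per kb in YFP-negative and 310 in YFP-positive Tregs. The genes above it in YFP-positive Tregs were Batf (2486 per kb), a factor of effector Tregs, Jun (2483), Id2 (934), an inhibitor of E proteins, and Gata3 (373). Rora, a nuclear receptor gene, followed at 94.0. In YFP-negative Tregs the gene next above Gata1 in that order was Ahr, at 93.0, and the Gata1 values there were 54.3 in mouse 1 and 57.9 in mouse 2.

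Of the 6 GATA family genes, Gata1 and Gata3 were in the table, and they were counted in opposite directions. Gata3 (ENSMUSG00000015619, chromosome 2, 9857078 to 9890034) had normalized counts of 1502 and 1465 in YFP-positive mice 1 and 2. In YFP-negative Tregs it had 3543 and 2823. Here the YFP-positive libraries were the lower ones, close to each other and below both YFP-negative libraries. Its difference on the log2 scale was -1.24 in mouse 1 and -0.95 in mouse 2. The level of Gata1 relative to Gata3 depends on the gene lengths used, here those deposited. Per kilobase, Gata1 stood at 6.10% and 8.17% of the Gata3 level in YFP-negative mice 1 and 2. In YFP-positive Tregs it stood at 73.8% and 92.8% of that level. The log2 ratio of Gata1 to Gata3 thus differed between the populations by 3.59 in mouse 1 and 3.50 in mouse 2 (mean 3.54, SD 0.06, n = 2). The SD between mice of the population difference was 0.14 for Gata1 and 0.21 for Gata3 alone. Within a population the log2 ratio itself varied more between mice than Gata1 did, with a pooled SD of 0.27 against 0.15. The other 4 family members have no value here.

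**Figure D2:**
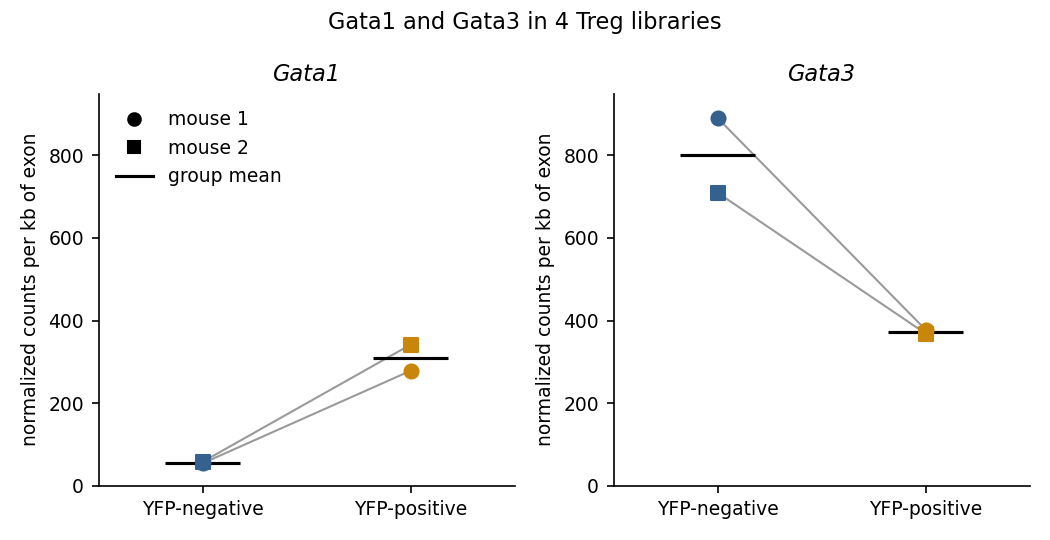
Normalized counts per kilobase of exon for Gata1 (left) and Gata3 (right) in the 4 libraries, with a line joining the populations of each mouse and a bar at the mean of 2 libraries. Gata1 goes from a mean of 56.1 in YFP-negative to 310 in YFP-positive Tregs, and Gata3 from 800 to 373.

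GATA1 works with cofactors such as FOG1 (Zfpm1), TAL1, LMO2 and LDB1, and in red cell precursors it drives globin, haem and membrane genes. Of 14 partner and competing factors 0 were listed, and of 31 erythroid genes 1 was listed, where 1.98% of all tested genes are listed. At that share, lists of these sizes would be near 0 or 1 in any case, and nothing is read from the counts. That gene, Car2, which encodes a carbonic anhydrase of red cells that is not restricted to them, went the other way from Gata1. Its normalized counts were 56.2 and 82.7 in YFP-positive mice 1 and 2, against 197 and 294 in YFP-negative mice. The lists of 13 megakaryocyte and platelet, 11 mast cell and basophil, and 9 eosinophil genes had 0 listed members, likewise near that share. Levels of genes that the table does not list were not analysed here, so counts of 0 say nothing of their level in either population, and whether red cell precursors were present was not tested.

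Of 11 B cell and plasma cell markers 1 was listed, Igkc, the kappa light chain gene, with 249 and 280 normalized counts in YFP-positive mice 1 and 2 and 1503 and 1072 in YFP-negative mice. It was lower where Gata1 was higher, and its part in the Gata1 difference was not tested. Of 10 Treg identity genes, Gpr83, a receptor gene enriched in Tregs, was listed and was on the side of Gata1, at 5443 and 4259 against 1752 and 1442. Of 7 genes of the MLL1 complex 0 were listed. With 1.98% of all tested genes listed, single members of such short lists say little of the lists.

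Gata1 shares its chromosome with Foxp3, the gene that carries Cre and the red fluorescent protein in these mice. Male cells have a single X chromosome, so each Treg carries that allele only. In GENCODE M21, Foxp3 lies on the plus strand from 7573644 to 7595245, and 364 kb separate its end from the lower end of Gata1. That interval holds 24 protein-coding genes that begin after the start of Foxp3, among them Tfe3, Pim2 and Hdac6. Of the 24, 0 were listed, and within 1 Mb on either side of Gata1 0 of 55 other protein-coding genes were listed. Beside the 1.98% of all tested genes, these counts are near the background and do not show that the neighbours were alike in both populations. The fixed lists of 22 neighbours from Foxp3 to Hdac6 and 9 neighbours beyond Gata1 likewise had 0 listed members. Values of those genes were not analysed here, so their direction is not known.

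Of the 282 listed genes, 10 lay on chromosome X, of which 2 were higher and 8 lower in YFP-positive Tregs (20% higher, against 30.5% of all listed genes). Gata1 was the higher one among the 9 protein-coding genes, and the other higher gene was Gm8172, a processed pseudogene, whose count is uncertain where reads match its parent gene. Gm8172 had normalized counts of 1157 and 1236 in YFP-positive and 633 and 556 in YFP-negative mice 1 and 2, a much smaller difference than that of Gata1. The listed gene nearest to Gata1 was Cd40lg, the CD40 ligand gene, 49.2 Mb away, with a log2 difference of -1.33. The others on the lower side were Renbp, Tktl1, Cxcr3, Fgf16, Nap1l3, Rnf128 and Gpm6b. Their log2 differences ran from -1.80 for Renbp to -2.87 for Fgf16. Cxcr3, a chemokine receptor gene of type 1 responses, and Gpm6b, which encodes a membrane glycoprotein, had the highest counts among them, with 5435 and 5954, and 2344 and 2845, in YFP-negative mice 1 and 2. The median log2 fold change of the authors was -2.01 over the 10 genes and -1.55 over all 282.

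**Figure D3:**
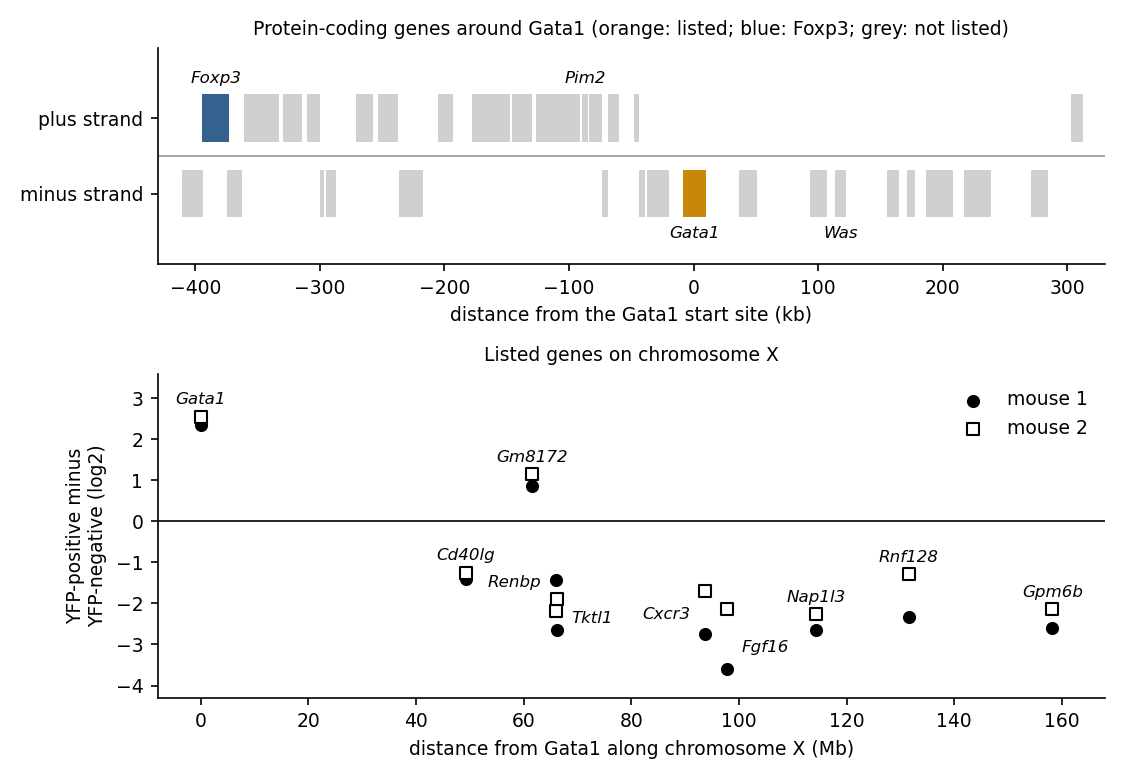
Top, protein-coding genes around Gata1 by strand, placed by distance in kb from the Gata1 start site, with Gata1 in orange as the listed gene, Foxp3 in blue and genes outside the table in grey. Bottom, difference between YFP-positive and YFP-negative Tregs within each mouse (log2) for the 10 listed genes of chromosome X against their distance from Gata1 in Mb, where Gata1 and Gm8172 lie above 0 and 8 genes below it.

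The genes whose pattern over the 4 libraries was most like that of Gata1 were found by the root mean square difference of log2(normalized count + 1), after each gene was centred on its own mean. Over 247 candidates the 5 smallest distances were those of B430306N03Rik (0.079), Tmem121b (0.20), Ppm1l (0.24), Zcchc24 (0.26) and Gsta4 (0.26). The median distance was 0.52 over the 64 candidates that were higher in YFP-positive Tregs. With 4 libraries in 2 groups, any gene of like fold change comes out close, so these distances mostly rank fold changes. The list also depended on the pseudocount. With 10 in place of 1, 2 of the 5 genes stayed, B430306N03Rik and Gsta4, and Ncf1, Ntn4 and Trpm1 took the other places.

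B430306N03Rik (chromosome 17, 48316141 to 48327024) had normalized counts of 173 and 183 in YFP-positive and 29.4 and 33.3 in YFP-negative mice 1 and 2. Gsta4 (chromosome 9, 78182774 to 78209349), a glutathione transferase gene, had 659 and 722 against 174 and 184, the level nearest to that of Gata1 among the 5. Ppm1l, a protein phosphatase gene, had 245 and 235 against 59.8 and 51.3. The fold differences of these genes were 5.68, 3.87 and 4.33, against 5.53 for Gata1. Tmem121b had 148 and 163 against 33.3 and 38.7. Zcchc24 rested on 5 inferred reads in each YFP-negative library, and its 9.17-fold difference is correspondingly imprecise. None of the 5 lies on chromosome X or carries a transcription factor family in the table.

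**Figure D4:**
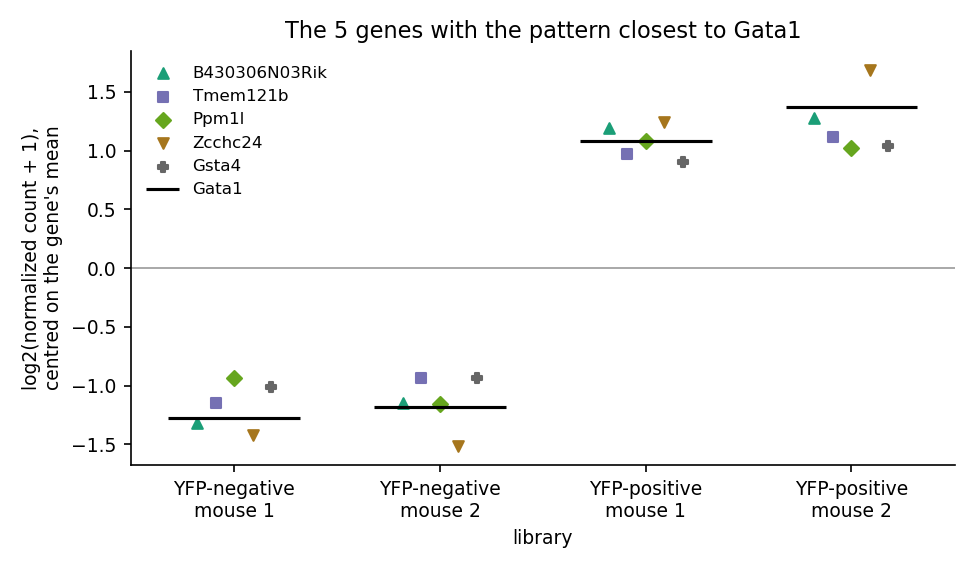
Centred log2(normalized count + 1) in each of the 4 libraries for Gata1 (black bars) and the 5 genes with the closest pattern (coloured symbols). All 6 genes lie below 0 in both YFP-negative and above 0 in both YFP-positive libraries, and Zcchc24 lies farthest out.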

How the data were processed

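RNA from 300000 sorted Tregs per population, with a stated purity above 95%, was sequenced in 4 libraries. The submitters' processing notes name DESeq2 1.16.1, featureCounts 1.5.0-p3, HISAT2 2.0.5, StringTie 1.3.3b and the mm10 build, and the series' design text names DEGSeq 1.16.1. No strand setting was given in the sources used here. All deposited signal values are gene read counts that the authors divided by 1 size factor per library. The authors deposited log2 fold changes (YFP-positive over YFP-negative) and p-values with adjusted p-values for 282 selected genes, which are no background. The p-values imply 285 ranks, and 3 of them belong to no listed gene.

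Within 0.001 reads, 100% of values were whole multiples of 1 step per library, from which reads and size factors of 0.943 to 1.11 were inferred. The listed genes held 196337 to 329350 reads per library, which is not the depth. With Gata1 chosen on this contrast, no test was run. Differences were taken on log2(value + 1) with numpy 2.4.6 and pandas 2.3.3, and intervals with scipy 1.17.1. Mouse numbers were taken to pair the libraries, from the titles. The deviations of the mouse 1 libraries correlated across 282 genes (Pearson's r = 0.39, a description, since genes are not replicates). Of the listed genes, 273 matched GENCODE M21 by identifier, and 259 had the same exon length there. Named genes were Gata1, those with a transcription factor family, those on chromosome X, the 5 closest patterns (without numbered gene models, pseudogenes and receptor segments) and members of 11 gene lists. Among the genes with a family, 1 is counted but not reported here by name. Gata1 and the lists were chosen with earlier results of these data known. Alternatives were other pseudocounts, inferred reads, a replicate block, a mean of at least 50 and leaving out each library.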

Additional observations from a re-analysis of the deposited data

How the results depend on the processing

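The log2 difference of Gata1 was 2.45. It was 2.46 and 2.38 with pseudocounts of 0.1 and 10, and 2.30 to 2.60 when 1 library was left out. Without normalization, on inferred reads, it was 2.29, since the size factors of the populations differ, a shift larger than the pooled SD of 0.15. With the mouse as a replicate block it was 2.45, the same by construction, with an SD of 0.14 between mice. The difference of the Gata1 to Gata3 log2 ratio was 3.54 with and without the block, 3.33 to 3.75 when 1 library was left out, and 3.54 on inferred reads, where the size factors cancel. Gata1 stayed in position 1 of the genes with a family under each order by signed difference that was tried. On chromosome X, 2 genes were higher under each setting tried. Of 264 values of the other 33 named genes under 8 settings, chosen after seeing the data, 249 moved by less than the spread between libraries, 15 moved by more and 0 reversed. With 2 libraries per population, leaving out 1 cannot move a difference by more than that spread, and the block leaves it unchanged. Those settings were therefore fixed in advance to count among the 249, and all 15 came from other pseudocounts or inferred reads. Groups of the selected genes do not overlap, so reversals could hardly occur. Just 2 libraries per population limit all values, and reads of genes such as Zcchc24 and Prox1 were few.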

Other observations

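Across all kinds of genes, the pattern closest to that of Gata1 was that of the noncoding gene Gm32633 on chromosome 7 (64001885 to 64020959), at a distance of 0.040. This gene was singled out after its values were seen. Its normalized counts were 323 and 384 in YFP-positive and 61.8 and 62.1 in YFP-negative mice 1 and 2. Trpm1, a cation channel gene that was among the 5 closest with a pseudocount of 10, starts 133 kb beyond it on the same strand. Trpm1 had 55.1 and 90.1 against 9.80 and 8.10, with 10 and 9 inferred reads in YFP-negative mice 1 and 2.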
